A study of Danio rerio with 6 samples.

Results

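The genes described here are 6 genes of the ventrolateral and paraxial mesoderm, eve1 (ENSDARG00000056012), cdx4 (ENSDARG00000036292), msgn1 (ENSDARG00000070546), mespaa (ENSDARG00000017078), mespab (ENSDARG00000068761) and apela (ENSDARG00000094729). They were taken by their Ensembl identifiers and are 6 of the 32266 genes listed for each library. RNA-seq was performed on whole zebrafish embryos of the Tubingen (TU) strain at 50% epiboly, a stage early in gastrulation, when the blastoderm has spread over the upper part of the yolk. There were 3 libraries from WT embryos and 3 from MZsmad4a embryos, each made from 25 pooled embryos. MZsmad4a embryos came from homozygous mothers and homozygous fathers carrying a CRISPR/Cas9 deletion in smad4a that shifts the reading frame, and so had neither maternal nor zygotic Smad4a. A pooled whole embryo mixes all cell layers, so that fewer cells of a type and less RNA per cell cannot be told apart.

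Mesoderm forms at the margin of the zebrafish blastoderm under the control of Nodal signals, and BMP signals then give its ventral and lateral parts their identity. Smad4 is the partner that the receptor-activated Smads of both pathways share. eve1 and cdx4 encode homeobox transcription factors of the even-skipped and caudal families that act in the ventral and posterior margin. msgn1, mespaa and mespab encode bHLH transcription factors, of which Msgn1 drives cells into the paraxial presomitic mesoderm and the Mesp factors act in early mesoderm and later in segmentation. apela encodes the secreted peptide Apela (also called Toddler or Elabela), which signals through Apelin receptors to guide the movement of mesendodermal cells.

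The libraries held between 9807865 and 20833491 counts, and WT replicate 1 was the smallest. smad4a itself was at 54.7, 62.3 and 60.8 CPM in the WT libraries and at 13.1, 15.3 and 14.6 CPM in the MZsmad4a libraries. CPM are counts scaled to a common library size with edgeR's TMM method. All matched markers of the other layers received counts in every library (hnf4a, cxcr4a and otx2b could not be matched). However, mxtx2 had only 2 counts in MZsmad4a replicate 1 and tp63 only 2 in MZsmad4a replicate 2, below the detection floor of 3 counts. The enveloping layer (5 of 5 markers), organizer (7 of 7), endoderm (5 of 5), ectoderm (4 of 4), yolk syncytial layer (2 of 2) and germ cells (4 of 4) had no matched marker at 0 in any library. The summed level of each of these marker lists overlapped between the genotypes. For example, it was between 7931 and 8878 CPM in WT and between 8745 and 9857 CPM in MZsmad4a for the enveloping layer, between 576 and 729 CPM and between 556 and 649 CPM for the organizer, and between 585 and 739 CPM and between 595 and 715 CPM for the endoderm. The largest part of the endoderm sum was gata6 (mean 364.9 CPM in WT, 429.3 CPM in MZsmad4a). The means of sox17 (11.9 and 2.60 CPM), sox32 (167.1 and 123.6 CPM), gata5 (106.5 and 69.9 CPM) and foxa2 (22.1 and 19.2 CPM) were lower in MZsmad4a. Likewise, the ectoderm sum was mostly sox3 (270.0 and 260.8 CPM) and sox2 (83.3 and 109.2 CPM), with tp63 at 3.28 and 0.480 CPM. The yolk syncytial layer sum was mostly mxtx1 (66.8 and 60.3 CPM), with mxtx2 at 2.29 and 0.307 CPM. Overlapping sums thus do not show that the single markers of a layer kept their levels. Of the 26 markers tested singly, 8 had every MZsmad4a library below every WT library (mxtx2, noto, frzb, sox32, sox17, gata5, foxi1 and tp63), 3 had every one above (dkk1b, sox2 and nanos3), and 15 overlapped. Of all 15720 tested genes, 11.9% were lower in every MZsmad4a library and 11.7% were higher. At an adjusted p under 0.01, edgeR called 1 marker lower, the ectoderm factor foxi1 (40.9 against 10.8 CPM, edgeR adjusted p = 0.00523), and 0 higher. It called 0.49% of all tested genes lower and 0.223% higher. DESeq2 at 0.01 called 1 yolk syncytial layer, 1 organizer, 1 endoderm and 2 ectoderm markers lower and 0 higher. Its shares over its 24983 tested genes, which include low-count genes that edgeR's filter removed, were 1.37% lower and 1.26% higher. The part of these markers in the results below was not tested.

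The 6 genes did not change together in MZsmad4a embryos. eve1 and cdx4 fell to 28.8% and 39.0% of their mean WT level, while msgn1 stood at 43.4%, mespab at 61.3%, apela at 99.4% and mespaa at 120.7%. For eve1, cdx4, msgn1 and mespab every MZsmad4a library was below every WT library, for mespaa every MZsmad4a library was above every WT library, and for apela the libraries overlapped. Over all 15720 tested genes, 11.9% had every MZsmad4a library below every WT library and 11.7% had every one above. By edgeR's quasi-likelihood test, with p-values adjusted after Benjamini and Hochberg over all tested genes and a threshold of 0.01, 2 of the 6 genes were called lower, where 0.49% of all tested genes were. At an adjusted p under 0.05 it was 4 of 6, where 1.67% of all tested genes were lower. DESeq2's Wald test at 0.01 also called 4 of 6 lower, where it called 1.37% of its 24983 tested genes lower. That larger set includes low-count genes, so its shares are not on the same basis as edgeR's. None of the 6 was called higher by either tool, and 0 of 6 had a positive change with an unadjusted p under 0.05 in edgeR, where 8.68% of all tested genes had. Of all tested genes, edgeR called 0.223% higher at 0.01 and 1.26% higher at 0.05, and DESeq2 called 1.26% higher. The 6 genes were chosen with earlier results of these data known, so these counts are a description and not a test.

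**Figure D1:**
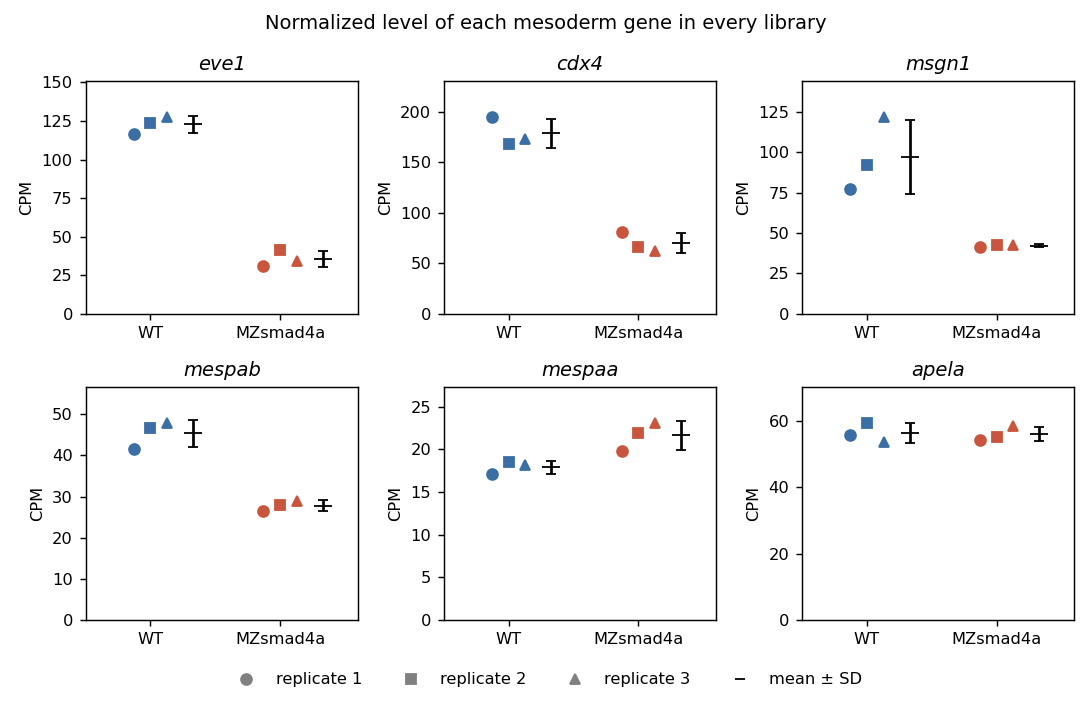
Normalized level in CPM (vertical axes, starting at 0) of each gene in the 3 WT libraries (blue) and the 3 MZsmad4a libraries (red), with the marker shape giving the replicate number and the black bar the mean ± SD of 3 libraries. eve1, cdx4, msgn1 and mespab were lower in every MZsmad4a library, mespaa was slightly higher in every one, and apela overlapped.

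eve1 fell the furthest of the 6 genes. It was measured at 117, 124 and 128 CPM in WT replicates 1, 2 and 3 and at 30.9, 41.1 and 34.0 CPM in MZsmad4a replicates 1, 2 and 3. The highest MZsmad4a library was thus at 33.5% of the WT mean, far from the lowest WT library. The WT mean was 122.7 ± 5.72 CPM and the MZsmad4a mean 35.3 ± 5.26 CPM (SD, n = 3 each). The log2 fold change was -1.80 (standard error 0.13, 95% interval -2.09 to -1.50, edgeR adjusted p = 0.000686), a 3.47-fold lower level. It remained past the threshold when any of the 6 libraries was left out, with log2 fold changes between -1.92 and -1.71. eve1 has 2 annotated transcripts, and its abundance-weighted length was between 1273 and 1278 bases in WT and between 1270 and 1281 bases in MZsmad4a embryos, so the estimated mix of transcripts overlapped between the genotypes.

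cdx4, which in zebrafish is needed for the posterior body and for Hox gene activation, was the second gene past the threshold. Its WT libraries had 195, 168 and 173 CPM and its MZsmad4a libraries 80.8, 66.3 and 62.5 CPM. Replicate 1 was the highest library in both genotypes, and the genotypes stayed apart. The WT mean was 179.0 ± 14.4 CPM and the MZsmad4a mean 69.9 ± 9.70 CPM (SD, n = 3 each). The log2 fold change was -1.36 (standard error 0.12, 95% interval -1.64 to -1.07, edgeR adjusted p = 0.00202). With 1 library removed at a time, the change lay between -1.47 and -1.28. The edgeR adjusted p, however, rose to 0.0106 without WT replicate 2, to 0.0158 without MZsmad4a replicate 2 and to 0.0101 without MZsmad4a replicate 3.

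msgn1, the driver of paraxial mesoderm differentiation, differed between the genotypes in level and in spread. WT replicates 1, 2 and 3 were at 77.4, 91.9 and 122 CPM, whereas the MZsmad4a libraries lay close together at 41.1, 42.8 and 42.6 CPM. The lowest WT library was still clearly above the highest MZsmad4a library. The WT mean was 97.2 ± 22.8 CPM and the MZsmad4a mean 42.2 ± 0.913 CPM (SD, n = 3 each). The coefficient of variation was 23.5% in WT, against 3.49% expected from counting error alone in the shallowest of those libraries, and it was 2.16% in MZsmad4a embryos, where counting error alone gives 3.75%. With 3 libraries per genotype, this difference in spread was not tested. The log2 fold change was -1.20 (standard error 0.17, 95% interval -1.59 to -0.82), and its edgeR adjusted p of 0.0105 just missed the threshold of 0.01. DESeq2's Wald test on the same counts gave -1.19 with an adjusted p of 3.3e-08. Without WT replicate 3, the library with the highest msgn1 level, the change was -1.01 (edgeR adjusted p = 0.0128).

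The segmentation clock genes her1, her7 and dlc, chosen after their values were seen, did not follow msgn1 across the WT libraries. her1, a transcriptional repressor of the clock, was at 72.7, 75.8 and 40.1 CPM in WT replicates 1, 2 and 3 and 22.9, 44.0 and 54.99 CPM in MZsmad4a replicates 1, 2 and 3. Its partner repressor her7 was at 29.99, 31.5 and 20.5 CPM in WT and at 7.10, 14.6 and 17.8 CPM in MZsmad4a libraries. For dlc, a Notch ligand, the WT values were 108, 102 and 57.3 CPM and the MZsmad4a values 24.6, 66.5 and 63.0 CPM. WT replicate 3 was the lowest WT library for all 3 clock genes and the highest for msgn1. Not every gene of this tissue went that way. The paraxial protocadherin gene pcdh8, also chosen after its values were seen, ranked the WT libraries as msgn1 did (194, 223 and 250 CPM). The genotypes overlapped for her1 and dlc, and for her7 every MZsmad4a library was below every WT library (edgeR adjusted p = 0.147).

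The mespa copies did not change alike, and their levels lay closer together in MZsmad4a embryos. mespab had 41.6, 46.6 and 48.0 CPM in the WT libraries and 26.5, 28.1 and 28.9 CPM in the MZsmad4a libraries, with no overlap. Its means were 45.4 ± 3.36 and 27.8 ± 1.23 CPM (SD, n = 3 each) and its log2 fold change -0.71 (standard error 0.12, 95% interval -0.98 to -0.43). The adjusted p was 0.0213 in edgeR and 5.55e-05 in DESeq2's Wald test, so that the call at 0.01 depended on the tool. The paper describes the expression of mespaa, mespab and tbx16 as unaffected, and for tbx16 it also shows in situ hybridization. Its test for RNA-seq was DESeq2 at 0.01, the tool and threshold at which mespab was called lower here.

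mespaa had 17.1, 18.5 and 18.2 CPM in the WT libraries and 19.8, 22.0 and 23.1 CPM in the MZsmad4a libraries. The gap between the highest WT and the lowest MZsmad4a library was small beside the distance between the MZsmad4a libraries. In TPM, which divides by transcript length and does not use TMM, the gap was narrower still. It ran from 46.9 in the highest WT library to 47.4 in the lowest MZsmad4a library. The length of mespaa was 887 bases in every library. The means were 17.9 ± 0.755 and 21.6 ± 1.70 CPM (SD, n = 3 each), and the log2 fold change was 0.27 (standard error 0.14, 95% interval -0.05 to 0.59, edgeR adjusted p = 0.364). A rise of mespaa was thus not detectable with this spread, and the interval reached from 0.968 to 1.504 times the WT level. Scaling by library size alone moved the median log2 fold change of all tested genes to -0.11, from -0.01 with TMM. mespaa was then at 0.16, which is 0.28 above the median of all genes, as it was with TMM.

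The copies were therefore compared within each library, where scaling and depth are shared. mespaa made up 29.1%, 28.4% and 27.5% of the summed mespaa and mespab counts in the WT libraries (95% Wilson intervals 25.7 to 32.8%, 26.1 to 30.9% and 25.0 to 30.1%). It made up 42.8%, 43.9% and 44.4% in the MZsmad4a libraries (39.4 to 46.2%, 40.7 to 47.2% and 41.4 to 47.6%). Without molecular identifiers, such intervals cover only the error of counting. The intervals of the 3 WT libraries overlapped each other, as did those of the 3 MZsmad4a libraries, and no interval overlapped across genotypes. The log2 ratio of mespaa to mespab was -1.31 ± 0.06 in WT and -0.36 ± 0.05 in MZsmad4a embryos (SD, n = 3 each). The difference of 0.96 was far larger than the spread between replicates, with p = 0.1 by an exact permutation test (two-sided), which is the lowest p that 3 libraries against 3 can reach. With 1 library removed at a time, it lay between 0.93 and 0.98. In TPM, mespab was at 2.32, 2.39 and 2.505 times the mespaa level in the WT libraries and at 1.27, 1.21 and 1.19 times in the MZsmad4a libraries, so mespab remained the more abundant copy in all 6.

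**Figure D2:**
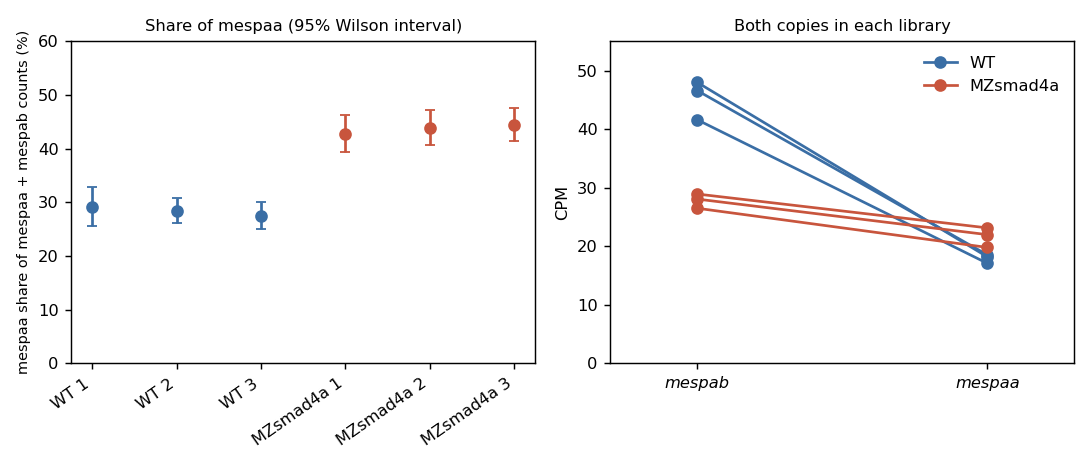
Left, share of mespaa in the summed counts of mespaa and mespab (percent, axis starting at 0) in each library with its 95% Wilson interval. Right, CPM of both copies, with a line joining the values of 1 library, for WT (blue) and MZsmad4a (red). The share was 27.5 to 29.1% in WT and 42.8 to 44.4% in MZsmad4a libraries, with mespab lower and mespaa near its WT level.

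The authors' counting can divide reads between similar genes, and such divided reads can leave fractional expected counts. All 36 values of the 6 genes were whole numbers (within 0.005), those of both mespa copies included. Over all listed genes, those at 0 included, 91.0 to 92.6% of the values per library were whole. Added together, the mespa copies were at 58.7, 65.1 and 66.2 CPM in the WT libraries and at 46.3, 50.0 and 52.0 CPM in the MZsmad4a libraries. This sum does not depend on how reads were divided between the copies, and so does not show whether the copies changed unequally. Its log2 difference of -0.35 (p = 0.1, exact permutation test, two-sided) lay between the changes of the copies, as that of a sum does by construction.

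In the RefSeq annotation of the assembly GRCz12tu, mespaa and mespab lie on chromosomes 7 and 25, each with a mespb gene as its neighbour and no protein-coding gene in between. The mespb genes, named after their values were seen, were barely detected. mespba, next to mespaa, received 4, 12 and 5 counts in WT replicates 1, 2 and 3 and 31, 44 and 20 in the MZsmad4a replicates, or 0.408 ± 0.152 against 1.76 ± 0.690 CPM (SD, n = 3 each). All MZsmad4a libraries were above all WT libraries, but its log2 fold change of 2.06 did not pass the threshold (edgeR adjusted p = 0.0647). mespbb, next to mespab, had 8, 5 and 3 counts against 12, 9 and 5 counts and was too low to be tested. None of the 6 genes lies on chromosome 10, which carries smad4a in that assembly.

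apela hardly differed between the genotypes. Its WT values of 55.9, 59.5 and 53.7 CPM were interleaved with its MZsmad4a values of 54.4, 55.2 and 58.5 CPM. The means were 56.4 ± 2.95 and 56.0 ± 2.14 CPM (SD, n = 3 each), and the log2 fold change was -0.01 (standard error 0.10, 95% interval -0.24 to 0.23, edgeR adjusted p = 0.981). The interval leaves room for levels between 0.845 and 1.17 times WT and lies wholly above the intervals of eve1, cdx4, msgn1 and mespab. The sign of its change turned when WT replicate 2, MZsmad4a replicate 1 or MZsmad4a replicate 2 was left out (0.0342, 0.0141 and 0.0046). The abundance-weighted length over its 2 annotated transcripts was between 865.6 and 867 bases in all 6 libraries.

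Neither receptor of Apela was called changed. aplnra was at 85.7 ± 11.7 CPM (WT) and 97.1 ± 17.2 CPM (MZsmad4a; log2 fold change 0.18, edgeR adjusted p = 0.613) and aplnrb 103.1 ± 10.4 against 127.0 ± 4.40 CPM (0.30, edgeR adjusted p = 0.173; SD, n = 3 each). For aplnrb all MZsmad4a libraries were above all WT libraries. The other ligand, apln, had at most 1 count in any library and was not tested, nor was aplnr2.

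**Figure D3:**
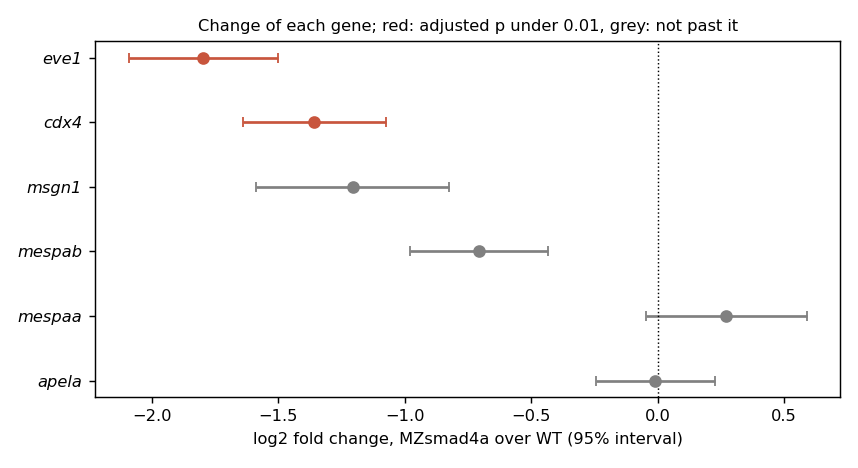
Log2 fold change of each gene, MZsmad4a over WT (horizontal axis), from edgeR's fit across all tested genes, with 95% intervals. Red marks an adjusted p under 0.01. The changes ranged from -1.80 for eve1 to 0.27 for mespaa, and only the intervals of mespaa and apela included 0.

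To see whether the genes differed from each other in their change, the log2 ratio within each library was compared between the genotypes for all 15 pairs. For 13 pairs the ratios of the WT and MZsmad4a libraries did not overlap, each with p = 0.1 (exact permutation test, two-sided) and an adjusted p of 0.115 over the 15 pairs, which this design cannot take lower than 0.1. The pairs share genes and are not independent, so these separations largely restate the unequal changes of the single genes. The share of such pairs among other genes was not computed. For the remaining 2 pairs the ratios overlapped. Whether a pair overlapped depended on the spread of its libraries as well as on the size of the difference. The ratio of mespaa to apela, for example, differed by only 0.27 without overlap. The ratio of eve1 to cdx4 was -0.54 ± 0.18 in WT and -0.97 ± 0.36 in MZsmad4a embryos (difference -0.43, exact permutation p = 0.2, SD, n = 3 each). The ratio of cdx4 to msgn1 was 0.90 ± 0.42 and 0.71 ± 0.22 (difference -0.19, exact permutation p = 0.7, SD, n = 3 each). For these 2 pairs a difference in change was not resolved beyond the spread of the libraries, which does not show that the genes changed alike. The ratio of eve1 to msgn1 (difference -0.62) and that of msgn1 to mespab (difference -0.47) were lower in every MZsmad4a library than in every WT library.

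Levels of different genes were compared in TPM, which accounts for transcript length. In WT embryos cdx4 was at 220 ± 27.4 TPM and eve1 at 201 ± 6.42 TPM, followed by apela at 149.5 ± 5.91, mespab at 110.9 ± 6.01, msgn1 at 96.5 ± 21.0 and mespaa at 46.1 ± 0.684 TPM (SD, n = 3 each). The ranges of cdx4 and eve1 overlapped, although cdx4 was above eve1 in each of the 3 libraries. The ranges of mespab and msgn1 also overlapped, and those of all other neighbours in this order were apart. In MZsmad4a embryos apela led at 139.6 ± 4.68 TPM, followed by cdx4 at 79.6 ± 10.7, mespab at 63.8 ± 3.13, eve1 at 54.0 ± 8.92, mespaa at 52.2 ± 4.25 and msgn1 at 39.0 ± 1.43 TPM (SD, n = 3 each). There the range of eve1 overlapped those of mespab and mespaa, although mespab was above eve1 in each of the 3 libraries. mespaa, the lowest of the 6 genes in every WT library, was above msgn1 in every MZsmad4a library. Summed over the 6 genes, the level was 824.3 ± 29.9 TPM in WT and 428.3 ± 12.9 TPM in MZsmad4a embryos (SD, n = 3 each).

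**Figure D4:**
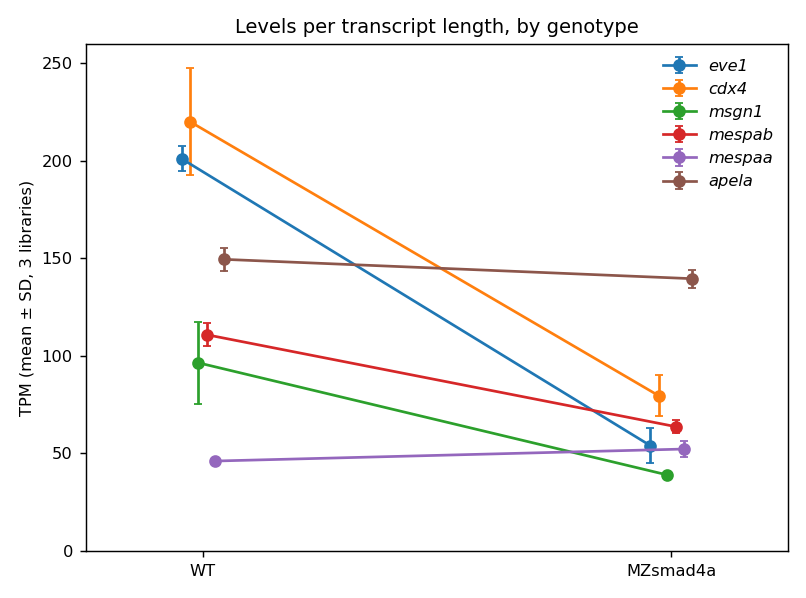
Mean TPM ± SD of 3 libraries (vertical axis, starting at 0) of each gene in WT and MZsmad4a embryos, joined by a line for each gene. The order changed from cdx4 and eve1 on top in WT to apela on top in MZsmad4a embryos, with mespaa passing msgn1.

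The other genes of these tissues were read from lists of markers. These lists were chosen with earlier results of these data known, so their counts and medians are a description and not a test. Of 23 posterior and ventrolateral mesoderm genes, 17 could be matched and 14 tested. edgeR called 3 of the 14 lower and 0 higher, DESeq2 4 lower and 0 higher, and at an unadjusted p under 0.05 edgeR had 11 lower and 0 higher. Of all tested genes, edgeR called 0.49% lower, DESeq2 1.37%, and 8.81% were lower and 8.68% higher at an unadjusted p under 0.05. The median log2 fold change was -0.77, against -0.01 over all tested genes. The T-box factor tbx16l went from 100.3 ± 9.34 to 17.8 ± 2.82 CPM (log2 fold change -2.49, edgeR adjusted p = 0.000445). The ventral repressor ved went from 215.1 ± 24.5 to 52.7 ± 16.4 CPM (-2.03, adjusted p = 0.00475) and the ventrally expressed zinc finger factor gata2a from 93.5 ± 12.2 to 41.3 ± 6.66 CPM (-1.18, adjusted p = 0.00809; SD, n = 3 each). The paper counts gata2 among the markers of ventral epidermis, so the fall of gata2a cannot be assigned to the mesoderm. By mean TPM, the most abundant genes of the list that were not past the threshold were tbxta, the Brachyury factor of the margin and notochord, with 573.8 ± 69.9 and 387.4 ± 54.7 CPM (-0.57, adjusted p = 0.0645), and the ventral repressor vox, with 152.9 ± 20.3 and 127.1 ± 2.36 CPM (-0.27, adjusted p = 0.258). gata2a lost its call in all 6 fits that left out a library (edgeR's adjusted p between 0.0175 and 0.0443, log2 fold changes between -1.30 and -1.06). ved lost its call in 3 of these fits, without WT replicate 1, WT replicate 2 or MZsmad4a replicate 2 (adjusted p = 0.0182, 0.0247 and 0.0286 from edgeR's test). The count of the list was then 1 in each of these 3 fits.

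Of 21 paraxial mesoderm and segmentation genes, 20 could be matched and 17 tested. edgeR called 1 lower and 0 higher, DESeq2 3 lower and 0 higher, and at an unadjusted p under 0.05 edgeR had 7 lower and 1 higher, where 0.49%, 1.37% and 8.81% of all tested genes were lower by these 3 rules and 8.68% higher by the last. The median log2 fold change was -0.63, against -0.01 over all tested genes. The gene called lower was dld, a Notch ligand of the presomitic mesoderm and neural plate, with 143.4 ± 5.88 CPM in WT against 67.4 ± 5.55 CPM in mutant libraries (SD, n = 3 each, log2 fold change -1.09, edgeR adjusted p = 0.00202). Its adjusted p was above 0.01, at 0.0107 to 0.0123, without WT replicate 1, WT replicate 2, MZsmad4a replicate 2 or MZsmad4a replicate 3, which left 0 genes of the list called by edgeR. By mean TPM, the most abundant genes not past the threshold were snai1a, a zinc finger repressor of involuting mesoderm, with 356.4 ± 49.7 and 293.7 ± 29.4 CPM (-0.28, adjusted p = 0.285), and the paraxial protocadherin gene pcdh8, with 222.4 ± 28.2 and 171.7 ± 10.3 CPM (-0.37, edgeR adjusted p = 0.125).

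**Figure D5:**
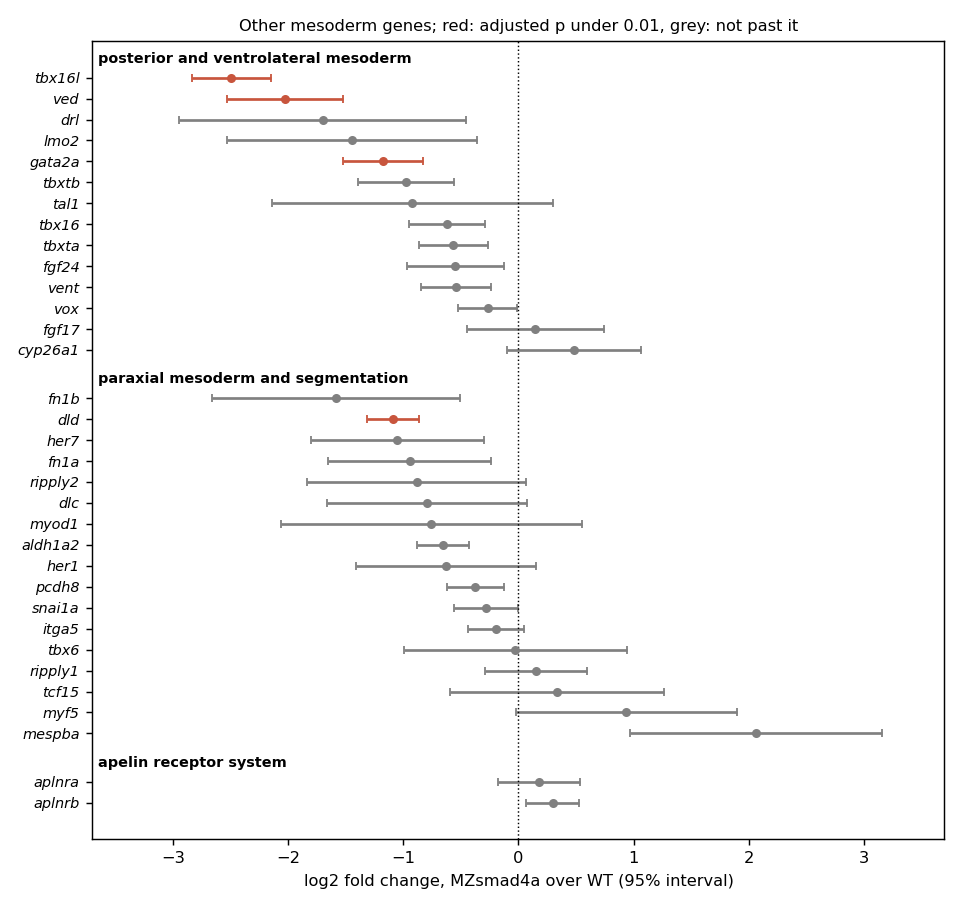
Log2 fold change, MZsmad4a over WT (horizontal axis), with 95% intervals from edgeR's fit, for the tested genes of 3 marker lists that exclude the 6 genes above. Red marks an adjusted p under 0.01, which tbx16l, ved, gata2a and dld reached.

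Across the 6 libraries, the genes with the most similar log2 CPM were listed for each of the 6 genes. The 6 points share the division into genotypes, and the similarity is given as a description. For mespab, bmp4, a BMP ligand of the ventral side, was among the 3 most similar genes (Pearson's r = 0.994 over 6 libraries, its mean falling from 49.4 CPM (WT) to 14.2 CPM (MZsmad4a)), after tspan3a and pgm2l1 (both r = 0.997). The closest gene was si:dkeyp-59c12.1 for eve1 (r = 0.998, followed by lrfn1 and rnpep, both 0.997), si:ch211-133n4.4 for cdx4 (r = 0.999, followed by si:dkey-3k24.5 with 0.998 and trim2b with 0.996) and ube2g2 for msgn1 (r = 0.996, followed by scamp3 with 0.995 and aaas with 0.992). The means of si:dkeyp-59c12.1 were 0.598 CPM in WT and 0.0736 CPM in MZsmad4a, and those of lrfn1 1.55 and 0.128 CPM. Both MZsmad4a means were below the detection floor of 3 counts. For mespaa the closest were lmcd1 (r = 0.998), CCDC12 (r = 0.994) and RTF1 (r = 0.994), and for apela zgc:153116 (r = 0.986), zgc:154058 (r = 0.985) and POLDIP3 (r = 0.979).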

How the data were processed

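Libraries were made by the authors with an mRNA kit from pools of 25 embryos and sequenced as paired-end reads. According to the paper's methods, adapters were removed with cutadapt, reads were aligned with STAR to GRCz11 with the Ensembl release 95 annotation and quantified with RSEM. The authors deposited RSEM's expected counts, which are not normalized, and TPM, scaled per transcript length to the same total in each library, together with the gene length. Whole numbers made up 91.0 to 92.6% of the values per library. Counts were rounded, filtered with filterByExpr, scaled with TMM and tested with edgeR 4.0.16 (glmQLFit and glmQLFTest, genotype as the only term, Benjamini-Hochberg over 15720 genes, threshold 0.01) in R 4.3.3. That threshold is the study's, whose own test was DESeq2. Standard errors were derived from the fold change and the test's F value. A level of 3 counts, between 0.144 and 0.306 CPM per library, was the floor of detection by depth and covers counting error only. The smallest count of the 6 genes was 181. Ratios used log2 of CPM plus 0.5 and exact permutation tests in SciPy 1.17.1. The fit was tested on simulated counts. Libraries are separate embryo pools, and no pair of the same genotype agreed within sampling noise.

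Alternatives were DESeq2 1.42.0, limma 3.58.1 on log2(TPM + 1), RLE scaling, library size only, no filter, at least 10 counts in every library, truncated counts, an adjusted p under 0.05, the replicate number as a block, and leaving out each library. The ratios were also computed in TPM and with pseudocounts of 0 and 2. The members and lists were chosen with earlier results of these data known. Named from the lists were genes past the threshold and the 2 tested genes with the highest mean TPM not past it, and, for each of the 6 genes, the 3 genes with the highest Pearson correlation of log2 CPM (prior count 2). Markers of other layers were read as sums and counts, and those named singly were chosen after their values were seen. Symbols came from a table of identifiers and, for names only, the paper's supplementary table, and 74 of 84 listed symbols matched a gene of the files.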

Additional observations from a re-analysis of the deposited data

How the results depend on the processing

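eve1 and mespaa kept their direction and their side of the threshold under every alternative, with log2 fold changes of eve1 between -1.92 and -1.71 and of mespaa between 0.16 and 0.33. The mespa ratio and sum kept their direction in TPM, with pseudocounts of 0 and 2, with library size only and without each library, and their p could not have passed the threshold in this design. Leaving out 1 library at a time gave -1.47 to -1.28 for cdx4, and its adjusted p was above 0.01 in 3 of these 6 fits. The same fits gave -1.34 to -1.01 for msgn1 and -0.76 to -0.67 for mespab. msgn1 passed the threshold with DESeq2 (-1.19), library size only (-1.31), no filter (-1.19), limma (-1.26) and an adjusted p under 0.05 (-1.20). mespab passed it with DESeq2 (-0.70), limma (-0.79) and an adjusted p under 0.05 (-0.71). apela changed sign around 0, at 0.0035 with DESeq2, 0.0084 without a filter, and from -0.0447 to 0.0342 over the fits without 1 library. edgeR's 77 lower and 35 higher genes became 343 and 315 with DESeq2, 167 and 116 without a filter, 43 and 21 with at least 10 counts in every library, 263 and 198 at an adjusted p under 0.05, and 16 to 47 and 8 to 29 without 1 library. The cause was not tested.

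With the replicate number as a block, 22 genes were lower and 7 higher. The log2 fold changes with the block were -1.80 for eve1 (adjusted p = 0.0066 from edgeR's test), -1.36 for cdx4 (0.00819), -1.18 for msgn1 (0.0265), -0.70 for mespab (0.0535), 0.27 for mespaa and -0.01 for apela, so that no call among the 6 genes changed, while ved, gata2a and dld lost theirs (0.0218, 0.0373 and 0.0184). The mespa ratio differed by 0.96 and the sum by -0.35 within same-numbered pairs (p = 0.25 by an exact permutation of signs, the lowest p possible with 3 pairs). Deviations from the genotype means correlated at 0.11, -0.03 and 0.14 in the 3 same-numbered pairs. Not every library correlated best with its own number, and the numbers were not taken to pair the libraries in the main fit. The paper's supplement, however, speaks of 3 batches of WT and MZsmad4a embryos. With 3 libraries per genotype, these correlations cannot decide whether same-numbered libraries form pairs.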
